A study of Homo sapiens with 32 samples.

Results

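Regions found in both METTL3 knockout libraries and in no other library were examined in maps of N6-methyladenosine (m6A) from PANC-1, an established cell line of human pancreatic ductal adenocarcinoma. A peak is given as 1 line of a list. A METTL3-knockout-only region was built from METTL3 knockout lines on chromosomes 1 to 22 that were narrower than 2000 bp. Each such line overlapped a line of the other METTL3 knockout library by at least 1 bp and overlapped no line of the CFL1 knockout list or the control list. Lines that met these conditions and overlapped each other were merged. The result was 4982 regions, made of 9488 of the 83402 lines found in both METTL3 knockout libraries under the same width limit. The regions were thus chosen by measured values, the position and presence of called peaks in all 6 libraries. All lines of the 3 lists together merged to 168125 regions on these chromosomes.

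The METTL3 knockout, the CFL1 knockout and the control cells each stand behind 1 list of peaks from total RNA, called from 2 libraries per list. The labels give an antibody sample and an input sample for each replicate, 12 samples in all, and name no other treatment of these cells. The sources used here do not say whether a knockout was 1 clone or whether both libraries of a list come from cultures grown apart, so the agreement between libraries may be technical. The knockout libraries carry the numbers 3 and 5 and the letters si in their peak names, the control libraries the numbers 1 and 2, and libraries are called by these numbers. Peak lists do not show whether METTL3 or CFL1 was absent, and neither this nor the identity of the cells was checked here.

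Adenosine in RNA is methylated mainly by a nuclear complex in which METTL3 carries the catalytic site, METTL14 holds the RNA and WTAP places the complex. The mark lies in a short consensus around an adenosine followed by a cytosine, often in long internal exons and near stop codons, and reader proteins of the YTH family bind it. Other enzymes, among them METTL16, methylate a small number of RNAs. CFL1 (cofilin 1) severs actin filaments. A peak in such a map marks a stretch where fragments bound by an anti-m6A antibody exceed the background of the peak caller, so it depends on the level of the RNA as well as on the mark. RNA levels were not examined here. More marked molecules and more of an RNA therefore cannot be told apart.

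The lists held 63859 and 64952 lines in METTL3 knockout libraries 3 and 5, 72728 and 66295 lines in CFL1 knockout libraries 3 and 5, and 77603 and 79467 lines in control libraries 1 and 2. No line in any library was narrower than 200 bp, and in the authors' deposited table of each group the lowest −log10 p was 4.00 for every library. No narrower or weaker peak is listed for any library. Read depth is unknown from these files. Positions are on hg19, and the regions were not assigned to genes, because an hg19 annotation was not used here.

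Regions of this kind made up a minority of what both METTL3 knockout libraries found. Of 41063 METTL3 knockout regions found in both libraries, 4973 held a METTL3-knockout-only region, which is 12.1% (exact 95% binomial interval 11.8% to 12.4%, counting error only). A larger part of the 41063 regions was shared with the CFL1 knockout alone. Taken whole, 4444 of them (10.8%) touched neither other list, 10233 (24.9%) touched the CFL1 knockout list and not the control list, 1839 (4.48%) touched the control list and not the CFL1 knockout list, and 24547 (59.8%) touched both. The same rule was turned round for the other lists. It gave 5791 CFL1-knockout-only regions, held by 14.3% of the CFL1 knockout regions found in both libraries (5781 of 40450). It gave 23642 control-only regions, held by 45.1% of the control regions found in both libraries (23617 of 52413). The METTL3 knockout thus had the fewest and the lowest share of the 3. Peaks that were numbered but not listed, described below, made up a larger part in every knockout library than in either control library. The 3 shares are not adjusted for that difference, and its part in their order was not tested. The 3 counts rest on the same 6 libraries and are not independent.

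These counts depend on the requirement of 2 libraries. With METTL3 knockout library 5 left out, 14135 regions of library 3 met the rest of the rule, and with library 3 left out, 14993 regions of library 5 did. Leaving out a library of another list kept the count between 5285 and 7169.

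The METTL3-knockout-only regions were mostly weak. Strength is given as the authors' −log10 q, and a region takes the strongest line of each library. Lines of both libraries met the rule in 4414 of the 4982 regions, and these 4414 have a value in each library. In library 3 their −log10 q ran from 1.90 over a median of 6.92 to 223, and in library 5 from 1.89 over a median of 5.81 to 205. In the 34715 other METTL3 knockout regions with values in both libraries, the medians were 25.4 in library 3 and 22.3 in library 5. The lower of the 2 library values had a median of 4.26 in the METTL3-knockout-only regions and 17.5 in the others. It was under 5 in 57.2% of the METTL3-knockout-only regions, against 18.5% of the others. A value of at least 10 in both libraries was reached by 909 METTL3-knockout-only regions (20.6%), and a value of at least 50 by 71 (1.61%). In the other regions these shares were 64.3% and 25.7%. No test was made of these differences, because the presence of lines in the same libraries chose the regions.

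**Figure D1:**
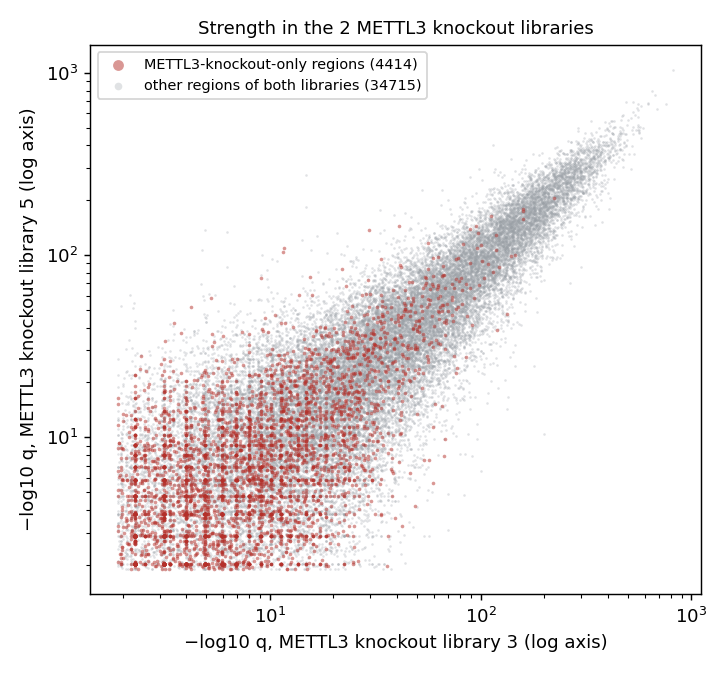
Strength of each region in METTL3 knockout library 3 (x axis) and library 5 (y axis), as −log10 q on log axes, for the 4414 METTL3-knockout-only regions with values in both libraries (red) and the 34715 other regions (grey). The red points gather in the weak corner of the cloud and reach 223 in library 3.

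Fold enrichment, the authors' ratio of a peak over the background of its call, differed less than −log10 q did. Its median was 4.42 in both METTL3 knockout libraries for the METTL3-knockout-only regions, against 5.74 in library 3 and 5.99 in library 5 for the others. A fold of at least 10 in both libraries was found in 52 METTL3-knockout-only regions (1.18%), against 14.6% of the others. Library 3 had the higher −log10 q more often in both sets, in 56.5% of the METTL3-knockout-only regions (interval 55.0% to 57.9%) and in 56.3% of the others (55.8% to 56.9%). The summits of the 2 libraries lay within 50 bp of each other in 61.1% of the METTL3-knockout-only regions, with a median distance of 34 bp. In the other regions 69.4% lay within 50 bp, with a median distance of 19 bp.

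Narrow peaks were frequent among these regions, and most of all among the strong ones. The METTL3-knockout-only regions had a median width of 331 bp (quartiles 236 and 483 bp), against 559 bp for the other regions (quartiles 365 and 896 bp). A wider line has more room to touch a line of another list, so the rule itself favoured narrow regions. Where −log10 q reached 50 in both libraries, the median width was 241 bp in the 71 METTL3-knockout-only regions and 823 bp in the 8907 others. Of the 71, 59 were at most 300 bp wide (83.1%), against 475 of the 8907 others (5.33%). By the same rule in the other lists, strong regions were also at most 300 bp wide more often than the other strong regions of their list. At that strength, 7 of 25 CFL1-knockout-only regions (28.0%) were at most 300 bp wide, against 345 of 7494 other CFL1 knockout regions (4.60%). The values were 48 of 324 control-only regions (14.8%) and 197 of 7714 other control regions (2.55%).

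The share of lines that were METTL3-knockout-only fell with width in every class of strength. Any overlap of 1 bp or more with another list removed a line, so the rule itself favoured such a fall. How much of the fall comes from the rule was not tested. Among lines with a −log10 q under 5, it was 36.4% at 200 to 249 bp and 10.3% at 1000 to 1999 bp. Among lines with a −log10 q of at least 50, it was 17.4% at 200 to 249 bp (158 of 909 lines), 3.92% at 250 to 299 bp and 1.07% at 300 to 399 bp. At 1000 to 1999 bp it was 0 of 6801 lines, which allows a share of up to 0.0441% if a count of 0 allows 3 lines, while the exact 95% interval ends at 0.0542%. Both bounds are per line. A site mostly adds a line of each METTL3 knockout library, so they are too tight for sites. The narrowest class lies directly above the smallest width in the lists, 200 bp. At 200 to 249 bp, the share was 23.8% of lines at a −log10 q of 5 to 10 and nearly level above that, with 18.3% at 10 to 20 and 17.9% at 20 to 50. What part the smallest listed width had in the absence of these sites from the other lists was not tested.

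**Figure D2:**
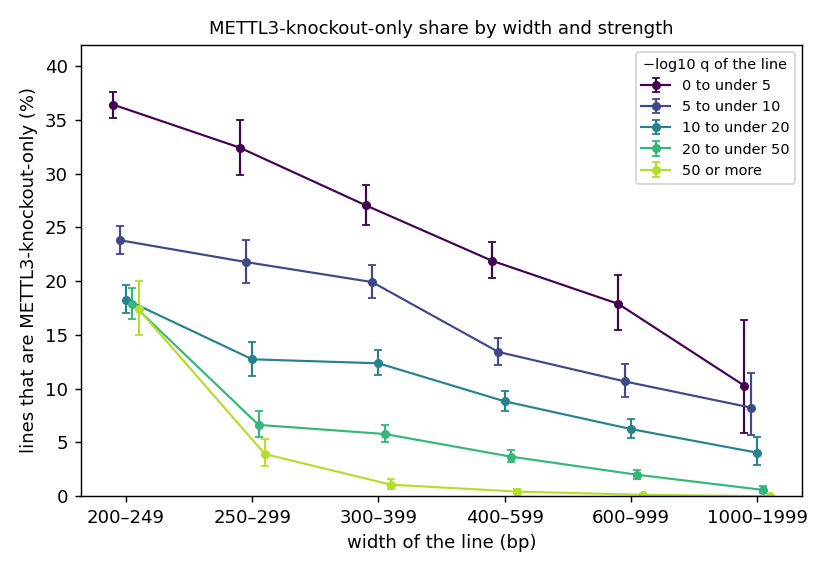
Share of METTL3 knockout lines found in both libraries that are METTL3-knockout-only (y axis, %, with exact 95% binomial intervals) by width of the line (x axis, bp) and class of −log10 q (colours). The intervals count the lines of the 2 libraries at a site apart and are too narrow for sites. The class of 50 or more drops from 17.4% at 200 to 249 bp to 0 of 6801 lines at 1000 to 1999 bp.

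The 20 strongest regions, ranked by the lower of the 2 library values, lay on 11 chromosomes, with 4 each on chromosomes 17 and 19. These 2 chromosomes held 199 and 236 of all 4982 METTL3-knockout-only regions. Of the 909 with a −log10 q of at least 10 in both libraries, they held 43 and 63. Whether 4 of 20 differs from these shares was not tested. All 20 were 220 to 320 bp wide, and 18 of them were at most 300 bp wide. The summits of their 2 libraries lay a median of 5.5 bp and at most 81 bp apart. Library 5 had the higher −log10 q in 11 of them and library 3 in 9. Their fold ran from 2.66 to 55.3, and only 4 passed a fold of 10 in either library. A line of another list lay within 1 kb of 6 of them and within 10 kb of 19.

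On chromosome 17, the region at 78120687 to 78121006 was the strongest of all, with a −log10 q of 223 in library 3 and 205 in library 5 (fold 8.58 and 10.4). A control line lay 581 bp away, while the nearest CFL1 knockout line was at 27060 bp. The region at 48462582 to 48462822 had −log10 q values of 95.6 and 109 in libraries 3 and 5, and the summits fell on the same base. The one at 76000067 to 76000314 had 82.8 and 115, and no other line lay within 10 kb of it, the nearest being a CFL1 knockout line at 14652 bp. The fourth, at 7210771 to 7211023, had 114 and 80.6. So the 4 regions ranged widely in the distance to other peaks but hardly in width, which was 241 to 320 bp.

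On chromosome 19, the region at 2114187 to 2114420 had a −log10 q of 158 in library 3 and 180 in library 5, with summits 1 bp apart. Its fold was 4.42 and 5.49, so its −log10 q was high at a modest fold. The region at 38743575 to 38743807 had 160 and 158 in the same order. The region at 18047118 to 18047347 had 112 and 164, and a control line ended 107 bp from it. At 4910702 to 4910986 the values were 139 and 99.2. Of these 4 regions, only the last was stronger in library 3 by more than a few units.

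The highest fold belonged to the region at 91222182 to 91222444 on chromosome 7, with a fold of 48.1 in library 3 and 55.3 in library 5. Its −log10 q was 158 and 174, its nearest CFL1 knockout line was 1459 bp away and its nearest control line 214436 bp away. The next highest fold among the 20 was 12.9, in library 5 at 121124973 to 121125291 on chromosome 12. Chromosome 2 held the regions at 99980556 to 99980791 (−log10 q 118 in library 3 and 130 in library 5) and 74605240 to 74605497 (145 and 100.1). Chromosome 14 held those at 35873732 to 35874022 (118 and 106) and 23791220 to 23791439 (108 and 89.6). The last is the narrowest of the 20, at 220 bp.

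Chromosome 12 held the regions at 121124973 to 121125291 (−log10 q 97.5 in library 3 and 132 in library 5) and 65004201 to 65004474 (88.7 and 90.1). The other 5 were single regions on their chromosomes among the 20. Chromosome 11 had the one at 62609116 to 62609385 (101 and 114), chromosome 8 the one at 80976752 to 80976994 (94.6 and 145) and chromosome 1 the one at 109766413 to 109766638 (102 and 92.3). Chromosome 22 had the one at 32340448 to 32340733 (88.6 and 139), and chromosome 15 the one at 44038527 to 44038817 (123 and 86.4). Of these 5, the regions on chromosomes 8 and 22 differed most between the libraries. The region on chromosome 11 had the lowest fold of the 20, 2.66 in library 3 and 2.99 in library 5.

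Most regions lay within 10 kb of a peak of another list. A CFL1 knockout or control line was within 1 kb of 2128 of the 4982 regions (42.7%) and within 10 kb of 80.8%, and 350 (7.03%) had one within 100 bp. CFL1 knockout lines were the nearer ones more often. The median gap was 2448 bp to a CFL1 knockout line and 5390.5 bp to a control line, and the CFL1 knockout line was the nearer in 3148 regions against 1828 for the control line. A CFL1 knockout line lay within 1 kb of 34.2% of the regions and a control line within 1 kb of 22.3%. No line of either list lay within 100 kb of 167 regions (3.35%). These gaps have no counterpart in the METTL3 knockout regions that overlap another list, so neither the nearness nor the lean to CFL1 knockout lines is shown to be particular to the METTL3-knockout-only regions. Among all METTL3 knockout regions, too, more touched the CFL1 knockout list alone (24.9%) than the control list alone (4.48%).

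**Figure D3:**
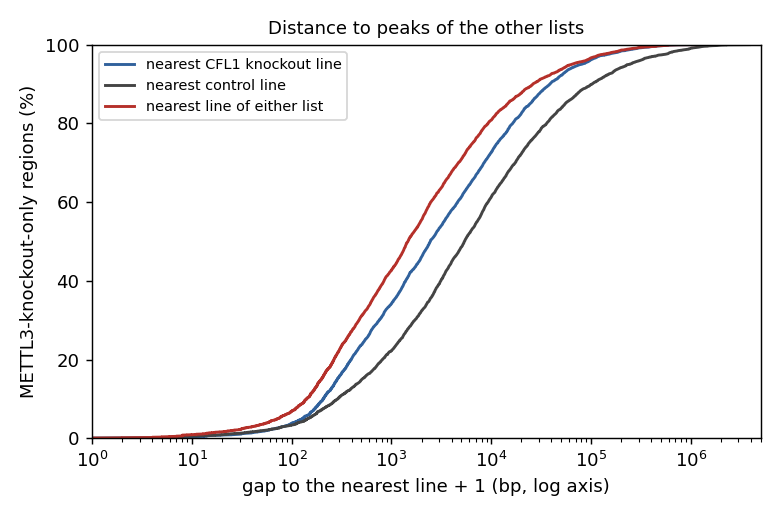
Cumulative share of the 4982 METTL3-knockout-only regions (y axis, %) by the gap to the nearest CFL1 knockout line, control line or line of either list (x axis, bp plus 1, log axis). The curve for control lies to the right of the curve for the CFL1 knockout, with medians of 5390.5 and 2448 bp.

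The strongest regions with no other line within 10 kb were led by the one at 76000067 on chromosome 17 described above. On chromosome 2, the next, at 102460494 to 102460732, had a −log10 q of 59.2 in library 3 and 76.7 in library 5. At 73160041 to 73160265 on chromosome 3 the values were 93.1 and 58.4, and the nearest other line was 44949 bp away. That region is well separated from any listed peak of the other lists, though numbered peaks that are not listed may lie nearer. At 49126867 to 49127079 on chromosome 20 they were 57.6 and 65.4, and at 54871743 to 54872176 on chromosome 1 they were 81.5 and 53.6. The most isolated of the 6 was at 46948613 to 46948824 on chromosome 13, with 55.5 and 51.7 and no other line within 100 kb.

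The peak numbers in the lists show where peaks were numbered but not listed. Within a chromosome the numbers of a library increase with position and skip values, so a skipped number between 2 neighbouring lines stands for a numbered peak that is not listed. Up to the highest number of each library, 22.5% and 28.6% of numbers were skipped in control libraries 1 and 2. In the METTL3 and CFL1 knockout libraries these shares ran from 41.8% to 50.2%. A skipped number lay between the lines that flank a METTL3-knockout-only region in 76.5% of regions for CFL1 knockout library 3, 67.7% for CFL1 knockout library 5, 46.0% for control library 1 and 58.4% for control library 2. Over all pairs of neighbouring lines the shares were 37.9%, 31.0%, 20.3% and 25.0% in the same libraries. The 2 sets of pairs are not matched for the distance between their lines, and a longer stretch has more room for a skipped number. The flanking lines were farther apart, a median of 42924.5 bp against 5120 bp over all pairs in CFL1 knockout library 3 and 62424 bp against 3575 bp in control library 1. A skipped number can lie anywhere in that stretch, and the sources used here do not say why these peaks are not listed.

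**Figure D4:**
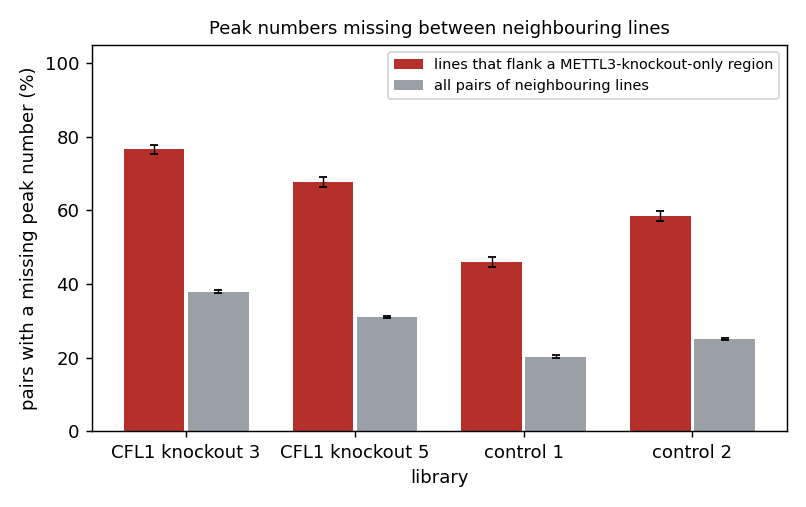
Share of pairs of neighbouring lines with a skipped peak number between them (y axis, %, with exact 95% binomial intervals) in the 4 other libraries, for the pairs that flank a METTL3-knockout-only region (red) and all pairs (grey), which are not matched for distance. The red bars run from 46.0% to 76.5% and the grey bars from 20.3% to 37.9%.

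In 371 of the 4971 regions that could be assessed (7.46%), no number was skipped in any of the 4 other libraries, so no numbered peak of those libraries lay between the flanking lines. In 1087 (21.9%) a number was skipped in all 4. The 371 regions were stronger, with a median lower −log10 q of 8.48 (334 regions with values in both libraries) against 4.02 (4069) in the rest of the assessed regions. The 2 sets are not matched for the distance between the flanking lines. A line of another list lay within 1 kb of 55.0% of the 371 regions, against 42.7% of all 4982. Of the 20 strongest regions, 3 were among the 371, those at 2114187 on chromosome 19, 99980556 on chromosome 2 and 23791220 on chromosome 14. The 6 strongest regions with no other line within 10 kb were not among them. Each had skipped numbers in 2 to 4 of the 4 other libraries. A strict subset was formed after the data had been seen. It asked for a −log10 q of at least 10 in both METTL3 knockout libraries, no other line within 1 kb and no skipped number, and 76 regions (1.53%) met it.

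The strongest region of the strict subset, on chromosome 21 at 34918339 to 34918601, had a −log10 q of 80.4 in library 3 and 75.1 in library 5, with summits 1 bp apart. At 160133912 to 160134133 on chromosome 3 the values were 97.9 and 68.4, and at 17810780 to 17811017 on chromosome 17 they were 81.3 and 64.1. These 3 were 222 to 263 bp wide, as narrow as the strongest regions overall. The region at 1407508 to 1407772 on chromosome 19 had 59.7 and 96.6. On chromosome 1, the regions at 214802215 to 214802443 and 179980955 to 179981176 had 58.6 and 69.8, and 63.1 and 57.8. In none of the 6 did the nearest other line lie nearer than 1185 bp.

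Along the genome the regions were spread over all 22 chromosomes, with the lowest shares on chromosomes 16, 17, 19 and 22. The share of METTL3 knockout regions that held a METTL3-knockout-only region was 12.1% over all chromosomes. It was highest on chromosome 4, at 15.9% (259 of 1631, interval 14.1% to 17.7%), followed by chromosome 6 at 14.2% and chromosome 2 at 13.8%. It was lowest on chromosome 16, at 7.83% (155 of 1979, 6.69% to 9.10%), with chromosomes 17, 19 and 22 at 8.81%, 8.84% and 8.96%. Strength went along with this order in part. The median of the lower −log10 q over all METTL3 knockout regions was 10.9 on chromosome 4 and 17.0 on chromosome 16. Chromosomes 2, 17 and 19 followed the order, at 12.9, 17.0 and 16.7. Chromosomes 6 and 22 did not, at 14.6 and 13.2. Among regions with at least 10 in both libraries, of which 4.62% (1083 of 23418) held a METTL3-knockout-only region, the share was 5.22% on chromosome 4 and 3.07% on chromosome 16. In that set it was highest on chromosome 9, at 6.11% of 1015 regions, and lowest on chromosome 21, at 2.40% of 334. No intervals were worked out for the chromosomes in that set, so their order may lie within counting error. Chromosomes 17 and 22 stayed under the 4.62% of all chromosomes in that set, at 3.67% of 1363 regions and 3.57% of 560. Chromosome 19 did not, at 4.89%.

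**Figure D5:**
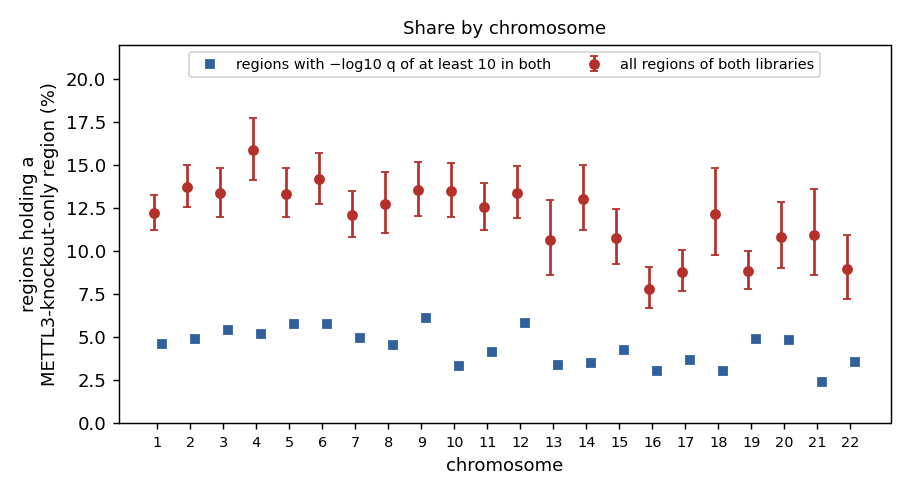
Share of METTL3 knockout regions found in both libraries that hold a METTL3-knockout-only region (y axis, %) on each chromosome (x axis), for all regions with exact 95% binomial intervals (red circles) and for regions with a −log10 q of at least 10 in both libraries (blue squares). The red values run from 7.83% on chromosome 16 to 15.9% on chromosome 4.

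The share was also lower where more peaks of the other lists lay in the surroundings. METTL3 knockout regions were put into 4 groups of like size by the number of lines of the 4 other libraries within 500 kb on either side. In the sparsest group, with a median of 70 such lines, 17.6% held a METTL3-knockout-only region (1807 of 10266, interval 16.9% to 18.4%). The share was 12.9% in the second group, 10.2% in the third and 7.85% in the densest, with a median of 459 lines (808 of 10296, 7.34% to 8.38%). Among regions reaching a −log10 q of 10 in both libraries, the shares in the same order were 5.51%, 5.02%, 4.24% and 3.88%. The presence of lines in the other lists is part of the rule, so these values are a description.

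A few windows stood out. Windows of 1 Mb with at least 10 METTL3 knockout regions numbered 1412, and 127 of them held no METTL3-knockout-only region. The median share in these windows was 10.5%. More than 50% of the regions were METTL3-knockout-only in 4 windows. The highest share was at 186000001 to 187000000 on chromosome 2, where 8 of 11 regions (72.7%) held one. That window had 40 METTL3 knockout lines, against 12 CFL1 knockout lines and 2 control lines. The others were at 106000001 to 107000000 on chromosome 11 (6 of 10 regions), 58000001 to 59000000 on chromosome 2 (6 of 11) and 110000001 to 111000000 on chromosome 10 (6 of 11). The largest numbers of METTL3-knockout-only regions were found in other windows. The window at 140000001 to 141000000 on chromosome 5 held 17, in 15.7% of its 108 regions, and the one at 143000001 to 144000000 on chromosome 1 held 15, in 35.9% of its 39.

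METTL3-knockout-only regions followed each other directly in places. In 49 runs, 4 or more METTL3 knockout regions in a row held one, and 14 of these runs had 5 or more. Over all 41063 METTL3 knockout regions 12.1% held one. How many runs that share alone would give was not worked out, so the counts are a description. The longest had 7 regions in a row, at 50626788 to 53120085 and at 77025516 to 78930058 on chromosome 2. Their lower −log10 q values ran from 1.90 to 11.3 and from 2.29 to 35.0, so both runs held weak regions. No control line lay in either stretch, while the first held 8 CFL1 knockout lines and the second 5. A compact run of 5 regions at 104324230 to 104359816 on chromosome 12 held the highest values among the runs of 5, with lower −log10 q values of 11.7 to 51.6. That stretch of 35587 bp also held 3 CFL1 knockout lines and 8 control lines. A further run of 5 regions, at 93510633 to 93515225 on chromosome 10, had no line of either other list among them. Not every region of that run has a −log10 q in both METTL3 knockout libraries, so no lowest value is given for it.

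Some regions met the rule narrowly. In 568 of the 4982 regions, lines of 1 library alone met it, and in 564 of these the partner line of the other METTL3 knockout library overlapped a CFL1 knockout or control line. Another list had a line within 10 bp of 51 regions, while 42 METTL3 knockout lines missed the rule by an overlap of at most 10 bp. The nearest were at 43520685 to 43521170 on chromosome 5, where a control line began or ended directly at the region, and at 79292502 to 79293007 on chromosome 7, with a CFL1 knockout line in the same position. At 4053350 to 4053900 on chromosome 19 the gap to a control line was 1 bp. The widest region, at 104183996 to 104186111 on chromosome 5, was merged from 4 lines to 2116 bp, with a −log10 q of 49.7 in library 3 and 38.4 in library 5. It was followed by 1950 bp at 3516248 to 3518197 on chromosome 11 and 1846 bp at 95760354 to 95762199 on chromosome 4. The width limit removed few sites, as 2 lines of 2000 bp or more were found in both METTL3 knockout libraries and in no other.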

How the data were processed

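The lists used here hold m6A peaks of METTL3 knockout, CFL1 knockout and control PANC-1 cells. The labels give 32 samples in all, and the nuclear RNA and cytochalasin D samples were not analysed here. Peaks were called with MACS2 after STAR alignment to hg19, with bedtools also named, per the submitters' processing notes. The sources used here give no versions or settings and do not say how input was used. For each peak the authors deposited an interval, a summit, a fold enrichment (a ratio), a score, −log10 p and −log10 q. The score, like −log10 p, is the authors' own and entered no result except the lowest −log10 p per library. These values describe and rank peaks and are not levels of methylation.

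Samples were grouped by title, because for the total RNA controls the treatment field gives none even where the title names an antibody sample, and libraries were read from the peak names. Overlaps, gaps and merging were computed in Python 3.11.15 with numpy 2.4.6 and pandas 2.3.3, and were checked against bedtools 2.31.1 on simulated intervals. Coordinates are 1-based. Shares have exact 95% binomial (Clopper-Pearson) intervals from scipy 1.17.1, which cover counting error only, since neighbouring regions are not independent. Shares of lines count the 2 libraries at a site apart, so their intervals are too narrow for sites. No test was made, because the rule used presence in all 6 libraries. The regions named are the 20 strongest by the lower of the 2 library values (none within 10 kb of another), the 6 strongest with no other line within 10 kb, the 3 widest and the 3 nearest to another list. The 6 strongest of the strict subset and the windows and runs named were added after their values were seen. The region rule, the lists and the alternatives were chosen with earlier results of these data known. Lists of genes, and the location of regions in genes, were set aside because no hg19 annotation was used here.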

Additional observations from a re-analysis of the deposited data

How the results depend on the processing

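The 4982 METTL3-knockout-only regions, 5791 CFL1-knockout-only regions and 23642 control-only regions stayed within 1.5 times of these counts with an overlap of 50% of the shorter line, with the summit for absence, with lines under 1000 bp and with no width limit. With no other line within 1000 bp they were 2937, 3092 and 18559. Where all lists were held to a −log10 q of 5 or more, control-only regions numbered 13425. Where the list that holds the regions was held to a −log10 q of 10 or more, the counts were 1011, 1213 and 5930. A fold of 4 or more gave 2271, 2317 and 8079. With no skipped peak number in the 4 other libraries, an alternative chosen after seeing the data, they were 371, 786 and 4804. The METTL3 knockout had the lowest count in each of these settings. With each library left out in turn the counts ran from 5285 to 14993, 6113 to 23379 and 24411 to 40012 for METTL3-knockout-only, CFL1-knockout-only and control-only regions. The upper ends arise by construction, where the list that holds the regions keeps 1 library.

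The share of METTL3 knockout regions that held a METTL3-knockout-only region, 12.1%, was 13.1% with an overlap of 50%, 7.15% with no line within 1000 bp, 10.7% for a −log10 q of 5 or more in all lists, 4.11% for 10 or more in the METTL3 knockout list, 8.90% for a fold of 4 or more, 13.0% under 1000 bp, 15.3% with the summit and 0.903% with no skipped number. Without each library it ran from 12.8% to 24.5%. Except where construction shows it, the cause was not tested. The median width of the regions moved between 218 and 380 bp, and the median lower −log10 q between 3.82 and 17.3. The lower ends, 218 bp and 3.82, come from the setting without METTL3 knockout library 3. There the values are those of library 5 alone and not the lower of 2. No paired analysis was possible because the results are counts and shares of called regions that come from no test. The alternatives on gene location and on a motif near the summit were not run. Read depth is unknown, so a site absent from a list may lie just under its threshold.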
